A study of Mus musculus with 24 samples.

Results

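The genes described here encode respiratory complex II, respiratory complex III with its electron carrier cytochrome c, and ATP synthase. Members were the protein-coding genes of the deposited table whose symbol was Sdha, Sdhb, Sdhc, Sdhd, Cyc1 or Cycs, or began with Uqcr or with Atp5 under an older or newer name. Of 47643 genes in the table, 34 matched. 32 of them encode a subunit, the carrier or the inhibitor of ATP synthase: 4 for complex II, 9 for complex III, 1 for cytochrome c and 18 for ATP synthase. The other two, Atp5s and Dmac2 (older name Atp5sl), carry the name but encode no subunit, and are given apart. The samples were plantaris muscle, a fast muscle of the calf, from wild-type C57BL/6 mice. The mice of 11 samples had breathed normal air and those of 13 samples had been exposed to tobacco smoke for 16 weeks. The animals' age was not given in the sources used here, and air and smoke mice shared strain and genotype. The series title concerns the aryl hydrocarbon receptor and muscle impairment from smoking, and the comparison asks which of these mRNAs differed after smoke exposure.

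These complexes work in the inner mitochondrial membrane. Complex II, succinate dehydrogenase, oxidises succinate in the citric acid cycle and passes the electrons to coenzyme Q. Complex III takes electrons from reduced coenzyme Q, hands them to cytochrome c and pumps protons. ATP synthase lets the protons flow back through a rotating ring of c subunits and uses that rotation to make ATP in its F1 head. Muscle fibres rich in mitochondria hold more of all of them. All subunits of complex II are encoded in the nucleus, whereas 1 subunit of complex III and some of ATP synthase's membrane subunits are encoded in mitochondrial DNA.

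Levels are 3′-end read counts scaled to a common library total (CPM) on scaled libraries, and differences are log2 fold changes of smoke against air. Such reads come from 1 end of each transcript and are not divided by gene length, so the level of a gene relative to another is one of 3′-end reads only. Total counts per sample ranged from 2515697 to 4528845. All but 1 of the 32 members passed the filter on low counts, which asks for about 10 counts in as many samples as the smaller group holds. The exception was Atp5g2, with 0 to 8 counts per sample. Air sample 11 and smoke sample 10 stood apart from the other libraries on the first principal component of all tested genes, which held 14.8% of the variance. The number of members called is given with and without them, and values without air sample 11 are given for the members for which it was the lowest or highest air sample.

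Of the 31 members tested, 30 had a lower fitted level in smoke than in air, and 3 of them passed the test: Uqcrq of complex III, and Atp5g1 and Atp5j2 of ATP synthase. None was called higher. Calls needed an adjusted p under 0.05 in edgeR's quasi-likelihood test, with Benjamini-Hochberg adjustment over all 10159 genes tested. By the same rule 1.92% of all genes were called, 1.19% were called lower and 0.728% were called higher. At an unadjusted p under 0.05, 17 members were lower and 0 higher, against 808 lower and 767 higher among all genes tested. The median log2 fold change of the 31 members was -0.14, with a range from -0.24 to 0.03. The median over all genes tested was 0.01, and 48.4% of them had a negative fold change. DESeq2 called 9 members lower and 0 higher, where it called 2.07% of 9765 genes lower. Limma's voom called 3 lower and 0 higher, where it called 1.14% of all genes lower. Without air sample 11 and smoke sample 10, edgeR called 5 members lower (Uqcrq, Uqcrh, Uqcr10, Atp5j2 and Atp5h), and 2.11% of all genes in either direction. In 0 of the members did the CPM of the groups separate fully, against 0.0197% of all genes that were lower in smoke without overlap. The single positive estimate, that of Sdhc, turned to -0.02 without air sample 11. In whole muscle, fewer fibres of a kind and less of an mRNA in each fibre cannot be told apart. The labels do not say that the samples of a group came from separate animals, so p-values measure the spread between these samples only. In GENCODE M21, 12 members overlap a gene on the other strand (Sdha, Uqcrc2, Uqcrh, Uqcrb, Atp5a1, Atp5d, Atp5f1, Atp5j, Atp5o, Atp5l, Usmg5 and Atpif1), and their reads are uncertain where strand was not used in counting. On the same strand, 4 members (Atp5b, Atp5c1, Atp5g2 and Atp5o) overlap another annotated gene, where strand would not separate the reads. The 3 called members overlap no other annotated gene.

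**Figure D1:**
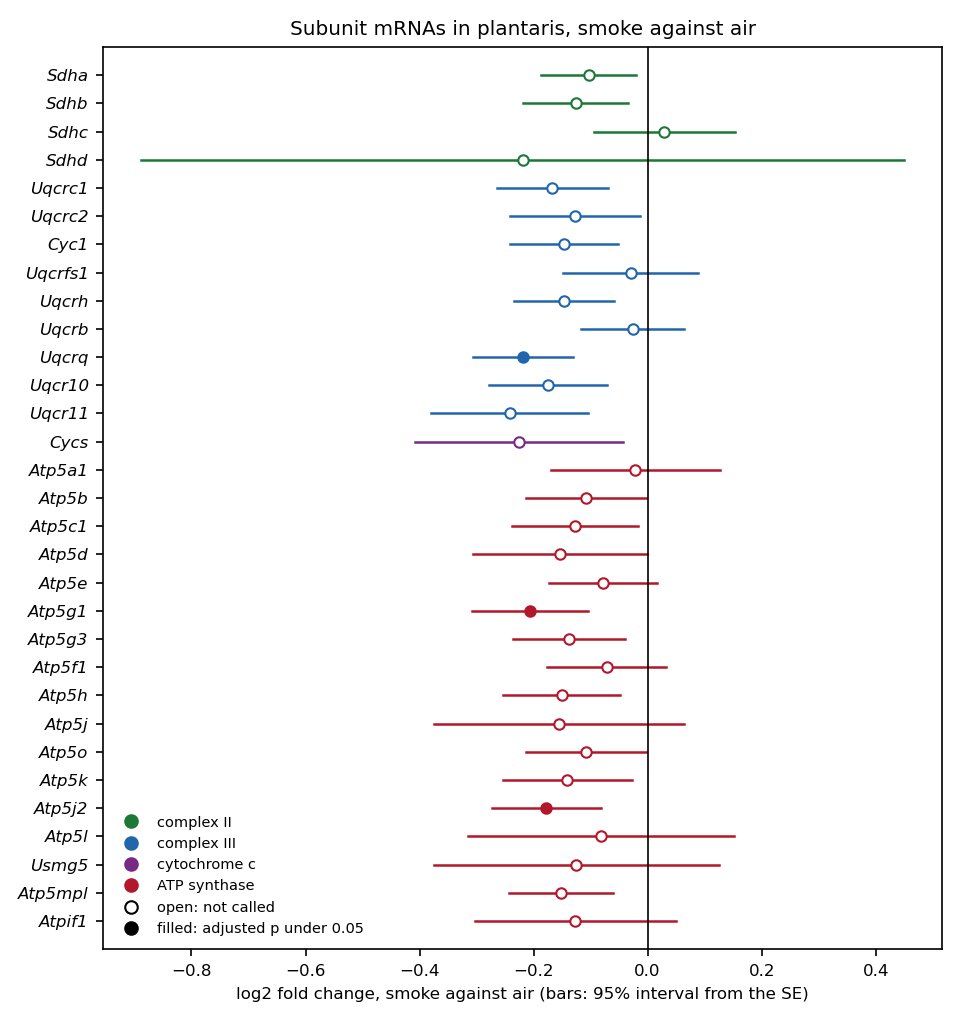
Log2 fold change of smoke against air (x axis) for the 31 members tested (y axis, coloured by complex), with bars for the 95% interval from the standard error; filled points passed the test at an adjusted p under 0.05. All points but Sdhc lie left of 0, and the interval of Sdhd is the widest. The bars use a normal approximation. Those of Atp5b, Atp5d and Atp5o end just below 0, although their unadjusted p was 0.0522, 0.0570 and 0.0516 (edgeR).

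In complex II no member was called by edgeR, DESeq2 or voom, and 2 of 4 were lower at an unadjusted p under 0.05. Sdha encodes the flavoprotein that oxidises succinate. Its level was 378 to 447 CPM in air with a median of 429, and 355 to 422 CPM in smoke with a median of 399. All 13 smoke samples lay below the air mean, although the groups overlapped, and the log2 fold change was -0.10 (SE 0.042, adjusted p = 0.210, edgeR). Sdhb encodes the iron-sulphur subunit through which the electrons pass. Its level was 604 to 743 CPM in air with a median of 672, and 557 to 695 CPM in smoke with a median of 616. The means were 680 ± 45.6 CPM in air (SD, n = 11) and 623 ± 42.3 CPM in smoke (SD, n = 13), with a log2 fold change of -0.13 (SE 0.047, adjusted p = 0.157, edgeR). Without air sample 11, the lowest air sample, the log2 fold change of Sdhb was -0.15 (adjusted p = 0.074, edgeR).

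Sdhc and Sdhd encode the membrane anchors of complex II, which bind coenzyme Q. Sdhc was at 553 to 898 CPM in air with a median of 796, and at 732 to 894 CPM in smoke with a median of 811. The means were 794 ± 109 CPM in air and 810 ± 60.0 CPM in smoke, with a log2 fold change of 0.03 (95% interval -0.09 to 0.15, SE 0.063, adjusted p = 0.881, edgeR). The lowest air value was that of air sample 11, and the smoke values lay inside the range of the air values. Sdhd had 2 to 54 counts per sample, and its log2 fold change of -0.22 had a 95% interval of -0.89 to 0.45. The values of Sdhd varied widely between samples, with a coefficient of variation of 74.2% in air and 64.2% in smoke. Leaving out 1 sample in turn moved its log2 fold change between -0.34 and -0.03. It was -0.03 without air sample 9, -0.04 without air sample 10 and -0.33 without air sample 11, so no direction is read for Sdhd.

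In complex III all 9 members had negative fold changes, with a median of -0.15. Uqcrq was called by edgeR, and 7 were lower at an unadjusted p under 0.05. Uqcrq encodes a small subunit that sits against cytochrome b in the membrane. Its level was 1143 to 1313 CPM in air with a median of 1238, and 900 to 1159 CPM in smoke with a median of 1075. 11 of the 13 smoke samples lay below every air sample, so the groups overlapped only through the other two. The means were 1228 ± 66.1 CPM in air (SD, n = 11) and 1056 ± 71.6 CPM in smoke (SD, n = 13). Uqcrq fell by 0.22 on the log2 scale (SE 0.045, adjusted p = 0.00635, edgeR), a change of -14.1%. It was called in each of the 24 fits that left out 1 sample, with adjusted p from 0.00285 to 0.0156 in edgeR.

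The other small subunits of complex III were not called by edgeR, with estimates from near 0 to beyond that of Uqcrq. Uqcr11, the smallest, had a log2 fold change of -0.24 (SE 0.070, adjusted p = 0.0632, edgeR). Its level was 520 to 915 CPM in air with a median of 576, and 470 to 636 CPM in smoke with a median of 514. The air maximum was air sample 11, without which the log2 fold change was -0.17 (adjusted p = 0.0819, edgeR). Uqcr10 had a log2 fold change of -0.18 (adjusted p = 0.0726, edgeR), and Uqcrh, the hinge protein between cytochrome c1 and cytochrome c, one of -0.15 (adjusted p = 0.0777, edgeR). Both had their highest air value in air sample 11, without which the log2 fold changes were -0.16 for Uqcr10 and -0.14 for Uqcrh. In contrast, Uqcrb, which lies at the coenzyme Q site, had means of 569 ± 36.1 CPM in air and 559 ± 36.3 CPM in smoke, with a log2 fold change of -0.03 (95% interval -0.12 to 0.06). The lower end of the interval of Uqcrb lies above the fold change of Uqcrq, while the difference between the genes was not tested.

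The core and the redox subunits of complex III gave no call in edgeR. Uqcrc1, a core protein on the matrix side, had 827 to 1109 CPM in air with a median of 848, and 725 to 904 CPM in smoke with a median of 792. 11 of 13 smoke samples were below the lowest air sample, and the log2 fold change was -0.17 (SE 0.050, adjusted p = 0.0679, edgeR). Without air sample 11, the highest air sample, the log2 fold change of Uqcrc1 was -0.13 (adjusted p = 0.087, edgeR). The second core protein gene, Uqcrc2, had a log2 fold change of -0.13 (adjusted p = 0.272, edgeR), and of -0.17 without air sample 11 (adjusted p = 0.0625, edgeR). Cyc1, which encodes the haem-bearing cytochrome c1, had one of -0.15 (adjusted p = 0.108, edgeR). Uqcrfs1, which encodes the Rieske iron-sulphur protein, averaged 729 ± 96.5 CPM in the air samples and 714 ± 48.4 CPM in smoke, and its log2 fold change was -0.03 (95% interval -0.15 to 0.09). The lowest air value was air sample 11, and without it the log2 fold change of Uqcrfs1 was -0.08 (adjusted p = 0.499, edgeR), whereas it was -0.0056 without air sample 10 and -0.012 without air sample 1. DESeq2 called 6 of the 9: Uqcrq, Uqcrc1, Cyc1, Uqcrh, Uqcr10 and Uqcr11.

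Cycs, which encodes the somatic cytochrome c, was not called by edgeR, DESeq2 or voom and was lower at an unadjusted p under 0.05. Its level was 42.9 to 70.9 CPM in air with a median of 55.3, and 34.8 to 66.9 CPM in smoke with a median of 47.0. The groups overlapped, and 10 of 13 smoke samples lay below the air mean of 56.9 ± 10.0 CPM, the smoke mean being 48.8 ± 8.59 CPM. The log2 fold change was -0.23 (SE 0.093, adjusted p = 0.212, edgeR). The table also lists a pseudogene of Cycs, Cycs-ps2, with 525 counts over all samples against 2227 in air and 2170 in smoke for Cycs. How reads matching both were assigned was not given in the sources used here, so the level of Cycs is uncertain by that share.

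**Figure D2:**
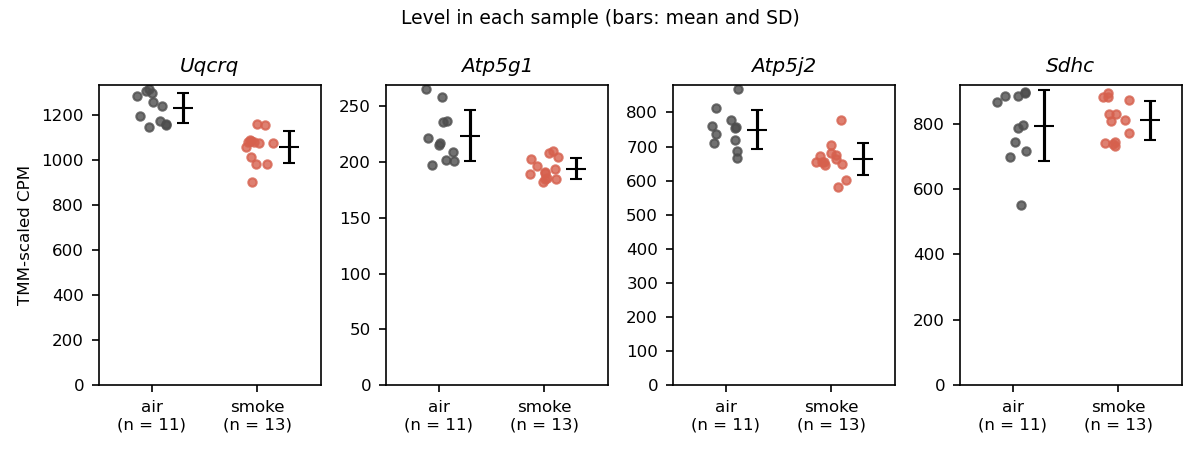
Level in each sample (y axis, TMM-scaled CPM from 0; points are samples, bars mean and SD) of the 3 called members and of Sdhc, in air (n = 11) and smoke (n = 13). Uqcrq, Atp5g1 and Atp5j2 have lower means in smoke with some overlap, while the Sdhc values of the groups cover the same range apart from a low air sample at 553 CPM.

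The F1 head of ATP synthase, the part that makes ATP, had 5 members and none called by edgeR, DESeq2 or voom. Its median log2 fold change was -0.11, and 1 member was lower at an unadjusted p under 0.05. Atp5a1 encodes the alpha subunit and had the estimate nearest to 0 in the enzyme, -0.02 (95% interval -0.17 to 0.13), with signs that changed between settings. Without air sample 11, the lowest of the air samples, the estimate for Atp5a1 was -0.08 (adjusted p = 0.618, edgeR). Atp5b encodes the catalytic beta subunit. Its level was 2122 to 2960 CPM in air with a median of 2461, and 1923 to 2657 CPM in smoke with a median of 2290. The groups overlapped widely around means of 2471 ± 234.9 CPM and 2292 ± 194 CPM, with a log2 fold change of -0.11 (SE 0.054, adjusted p = 0.329, edgeR). The highest air sample was air sample 11, and without it the log2 fold change of Atp5b was -0.08 (adjusted p = 0.436, edgeR).

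The rest of the head turns inside or under these subunits. Atp5c1 encodes the gamma subunit, the central shaft. Its level was 464 to 568 CPM in air with a median of 490, and 335 to 518 CPM in smoke with a median of 458. 7 of 13 smoke samples lay below every air sample, and the means were 494 ± 26.8 CPM and 452 ± 51.5 CPM, with a log2 fold change of -0.13 (SE 0.056, adjusted p = 0.251, edgeR). The genes of the delta and epsilon subunits at the foot of the shaft, Atp5d and Atp5e, had log2 fold changes of -0.15 (adjusted p = 0.342, edgeR) and -0.08 (adjusted p = 0.472, edgeR). For Atp5e, leaving out 1 sample in turn moved it between -0.10 and -0.05. Air sample 11 was the highest air sample for Atp5d, whose log2 fold change without it was -0.11.

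The c ring, the rotor through which protons pass, is built from a single mature peptide that 3 genes encode. They differ in the leading part that is removed after import, so that the mRNAs are told apart while the finished subunit is not. From the GENCODE M21 transcripts, the predicted proteins have 136 residues for Atp5g1, 146 for Atp5g2 and 141 for Atp5g3, and the last 78 residues are identical. Over the coding bases of that shared end, Atp5g1 and Atp5g2 were identical at 84.6% of positions, Atp5g1 and Atp5g3 at 78.6%, and Atp5g2 and Atp5g3 at 77.4%. The first 90 of these bases follow, on the coding strand, with capitals at the positions where the 3 genes are not all the same. They are shown because each row of reads belongs to 1 gene of a set with the same product. The genes lie on chromosomes 11, 15 and 2 in that order.
Atp5g1: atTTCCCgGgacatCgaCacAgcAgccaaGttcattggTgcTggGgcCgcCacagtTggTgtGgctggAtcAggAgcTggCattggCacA
Atp5g2: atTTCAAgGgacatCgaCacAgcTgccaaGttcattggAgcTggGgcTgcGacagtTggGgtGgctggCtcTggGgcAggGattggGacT
Atp5g3: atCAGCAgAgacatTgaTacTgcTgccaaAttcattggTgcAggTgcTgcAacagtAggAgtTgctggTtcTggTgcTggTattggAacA
Most capitals fall singly on the last base of a codon.

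Atp5g1 was called and Atp5g3 was not. Atp5g1 was at 197 to 265 CPM in air with a median of 217, and at 182 to 210 CPM in smoke with a median of 191. 9 of 13 smoke samples lay below every air sample and 7 of 11 air samples above every smoke sample. The means were 224 ± 23.1 CPM in air (SD, n = 11) and 194 ± 9.48 CPM in smoke (SD, n = 13). Atp5g1 fell by 0.21 on the log2 scale (SE 0.052, adjusted p = 0.0278, edgeR), a change of -13.3%. The call was lost without air sample 8, which had the highest value (adjusted p = 0.0615, edgeR), without air sample 11 and smoke sample 10 together (adjusted p = 0.0522, edgeR), and without the filter on low counts (adjusted p = 0.0664, edgeR).

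Atp5g3 was at 1815 to 2536 CPM in air with a median of 2244, and at 1897 to 2198 CPM in smoke with a median of 2019. All 13 smoke samples lay below the air mean of 2228 ± 235.8 CPM, and the smoke mean was 2026 ± 88.4 CPM. The log2 fold change was -0.14 (SE 0.050, adjusted p = 0.151, edgeR). The lowest air sample was air sample 11, and without it Atp5g3 had a log2 fold change of -0.17 (adjusted p = 0.0379, edgeR). Atp5g2 had 22 counts over the 11 air samples and 28 over the 13 smoke samples. Of the reads of the 3 genes, Atp5g1 made up 9.19 ± 1.28% in air (SD, n = 11) and 8.75 ± 0.387% in smoke (SD, n = 13), and Atp5g3 90.8% and 91.2%. The shares assume that the 3′ ends of these mRNAs are captured equally well. Atp5g1 took 7.83 to 12.5% of the reads in air and 8.20 to 9.38% in smoke, so the smoke shares lay inside the air range. The highest air share was that of air sample 11, without which the air share was 8.87 ± 0.721% (SD, n = 10).

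The peripheral stalk holds the head still while the shaft turns, and none of its 4 members was called by edgeR, DESeq2 or voom. 1 of the 4, Atp5h, was lower at an unadjusted p under 0.05. Atp5h was at 275 to 412 CPM in air with a median of 371, and at 299 to 356 CPM in smoke with a median of 329. 8 of 11 air samples lay above every smoke sample, while the lowest value of all was air sample 11. The means were 361 ± 37.7 CPM and 326 ± 15.6 CPM, with a log2 fold change of -0.15 (SE 0.052, adjusted p = 0.128, edgeR). Without air sample 11 it was -0.19 (adjusted p = 0.0166, edgeR). Atp5o, which encodes the subunit that joins stalk and head and whose locus overlaps a longer annotated gene of the same name, was at 971 to 1303 CPM in air with a median of 1140, and at 922 to 1223 CPM in smoke with a median of 1041. Its means were 1133 ± 108 CPM and 1051 ± 86.6 CPM, with a log2 fold change of -0.11 (SE 0.054, adjusted p = 0.327, edgeR). Atp5f1, the gene of the long b subunit, had a log2 fold change of -0.07 (adjusted p = 0.566, edgeR), and of -0.11 without air sample 11 (adjusted p = 0.200, edgeR). Atp5j, the gene of subunit F6, had one of -0.16 with a wide 95% interval of -0.38 to 0.06, and of -0.22 without air sample 11.

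The small subunits of the membrane part, several of which lie where ATP synthase dimers bend the cristae, gave the third call. Atp5j2, the gene of subunit f, was at 666 to 868 CPM in air with a median of 754, and at 582 to 778 CPM in smoke with a median of 656. 8 of 13 smoke samples lay below every air sample, and the highest value in each group came from the library that stood apart, air sample 11 and smoke sample 10. The means were 750 ± 57.5 CPM in air (SD, n = 11) and 663 ± 47.1 CPM in smoke (SD, n = 13). Atp5j2 fell by 0.18 on the log2 scale (SE 0.049, adjusted p = 0.0472, edgeR), a change of -11.6%. The adjusted p lay close to the threshold, and the call held in 7 of the 24 fits that left out 1 sample, with adjusted p from 0.0190 to 0.0871 in edgeR. It was lost without air sample 11 alone (log2 fold change -0.16, adjusted p = 0.0583, edgeR) and without the filter on low counts (adjusted p = 0.131, edgeR), and it held without both libraries that stood apart (adjusted p = 0.0215, edgeR).

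Atp5k, the gene of subunit e, was at 1322 to 1944 CPM in air with a median of 1592, and at 1290 to 1794 CPM in smoke with a median of 1382. Its means were 1566 ± 172 CPM and 1420 ± 137 CPM, with a log2 fold change of -0.14 (SE 0.058, adjusted p = 0.212, edgeR). Without air sample 11, the highest air sample, the log2 fold change of Atp5k was -0.11 (adjusted p = 0.307, edgeR). Atp5mpl, the gene of a small proteolipid of the enzyme, had a log2 fold change of -0.15 (adjusted p = 0.0777, edgeR), and all 13 smoke samples lay below its air mean. DESeq2 called Atp5mpl lower (adjusted p = 0.0214, DESeq2), and voom did not (adjusted p = 0.0618, voom). Without air sample 11, its highest air sample, the log2 fold change of Atp5mpl was -0.13 (adjusted p = 0.094, edgeR). Atp5l, the gene of subunit g, had one of -0.08 (95% interval -0.32 to 0.15), and Usmg5, now named Atp5mk, one of -0.13 (95% interval -0.38 to 0.13). Air sample 11 was the lowest air sample for both, and without it the log2 fold changes were -0.14 for Atp5l and -0.21 for Usmg5 (adjusted p = 0.598 and 0.308, edgeR). Leaving out another air sample moved them the other way, to -0.04 for Atp5l without air sample 9 and to -0.08 for Usmg5 without air sample 1. Atpif1 encodes the inhibitor that stops the enzyme from running backwards and breaking down ATP. Its means were 29.9 ± 4.71 CPM in air and 27.5 ± 3.98 CPM in smoke, with a log2 fold change of -0.13 (adjusted p = 0.540, edgeR).

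To set the complexes side by side, the CPM of their members were summed in each sample. A sum is led by its most abundant members, and no test was run on it. Complex III had 6008 to 6675 summed CPM in air with a median of 6262, and 5236 to 6167 in smoke with a median of 5685. 11 of 13 smoke samples lay below every air sample, and the means were 6303 ± 245.7 and 5681 ± 263, a change of -9.87%. ATP synthase had 14400 to 16250 summed CPM in air and 12950 to 15050 in smoke, with means of 15400 ± 647 and 14240 ± 630. All 13 smoke samples were below the air mean of ATP synthase, 7 were below every air sample, and the change was -7.54%. Complex II had 1565 to 2035 summed CPM in air and 1681 to 1923 in smoke. Its means were 1903 ± 134 and 1833 ± 90.1, a change of -3.70%. The air mean exceeded 9 of 13 smoke samples, and none lay below the lowest air sample, which was air sample 11. Without air sample 11 the air mean of complex II was 1937 ± 77.3 (SD, n = 10), the change was -5.37%, all 13 smoke samples lay below that mean and 4 lay below the lowest remaining air sample. The same step gave -9.41% for complex III and -7.81% for ATP synthase.

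The sum of complex II contained a large part from Sdhc. Without Sdhc the sum of complex II was 1109 ± 49.9 in air and 1022 ± 51.2 in smoke, a change of -7.83%, and all 13 smoke samples lay below the air mean. The same removal of the member with most reads gave a change of -8.86% for complex III and -7.60% for ATP synthase. The ratios between complexes overlapped throughout. Complex III relative to ATP synthase was 0.410 ± 0.017 in air and 0.399 ± 0.013 in smoke, and complex II relative to complex III was 0.303 ± 0.026 in air and 0.323 ± 0.016 in smoke (SD, n = 11 and 13).

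**Figure D3:**
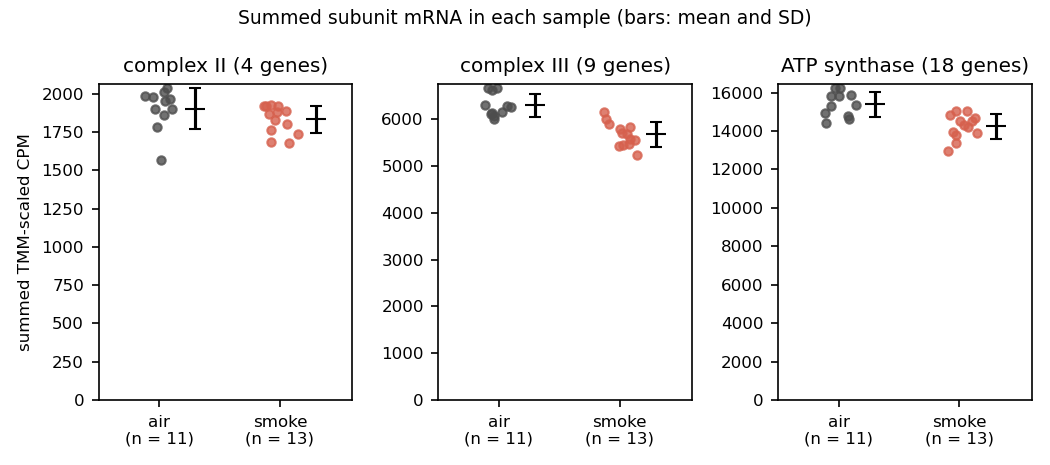
Summed TMM-scaled CPM of the members of complex II, complex III and ATP synthase in each sample (y axes from 0; points are samples, bars mean and SD) in air (n = 11) and smoke (n = 13). The smoke samples sit lower for complex III (5236 to 6167 against 6008 to 6675) and ATP synthase, while complex II overlaps fully through a low air sample at 1565, which is air sample 11.

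Variation among samples had a second pattern, carried by the libraries that stood apart. Air sample 11 was below every other air sample for 12 of the 31 tested members and above every other one for 9. Usmg5, Atp5j, Atp5a1, Uqcrfs1 and Sdhc were among the low ones, and Uqcr11, Atp5d, Uqcrc1 and Atp5k among the high ones. Smoke sample 10 was below every other smoke sample for 5 members and above for 9. The deviations of both libraries from the rest of their group had the same sign for 23 of 31 members, with r = 0.85 across members, which are not independent and share these libraries. Both libraries were singled out at the same end of the first principal component (38.7 and 29.0), which was computed from genes that include these members. Some agreement was thus built into the choice. The largest deviations were those of Sdhd (-1.99 and -2.61), at 2 to 54 counts per sample. The GC content of the transcripts was 39.9 to 54.9% with a median of 48.9% for the 12 members lowest in air sample 11, and 42.9 to 61.1% with a median of 53.9% for the 9 highest, so the ranges overlapped widely. Across the 31 members, GC content and the deviation had r = 0.50 for air sample 11 and r = 0.30 for smoke sample 10, as a description. Air sample 11 enters the fold changes of both sets, and without it their median log2 fold changes were -0.16 for the 12 members and -0.13 for the 9.

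**Figure D4:**
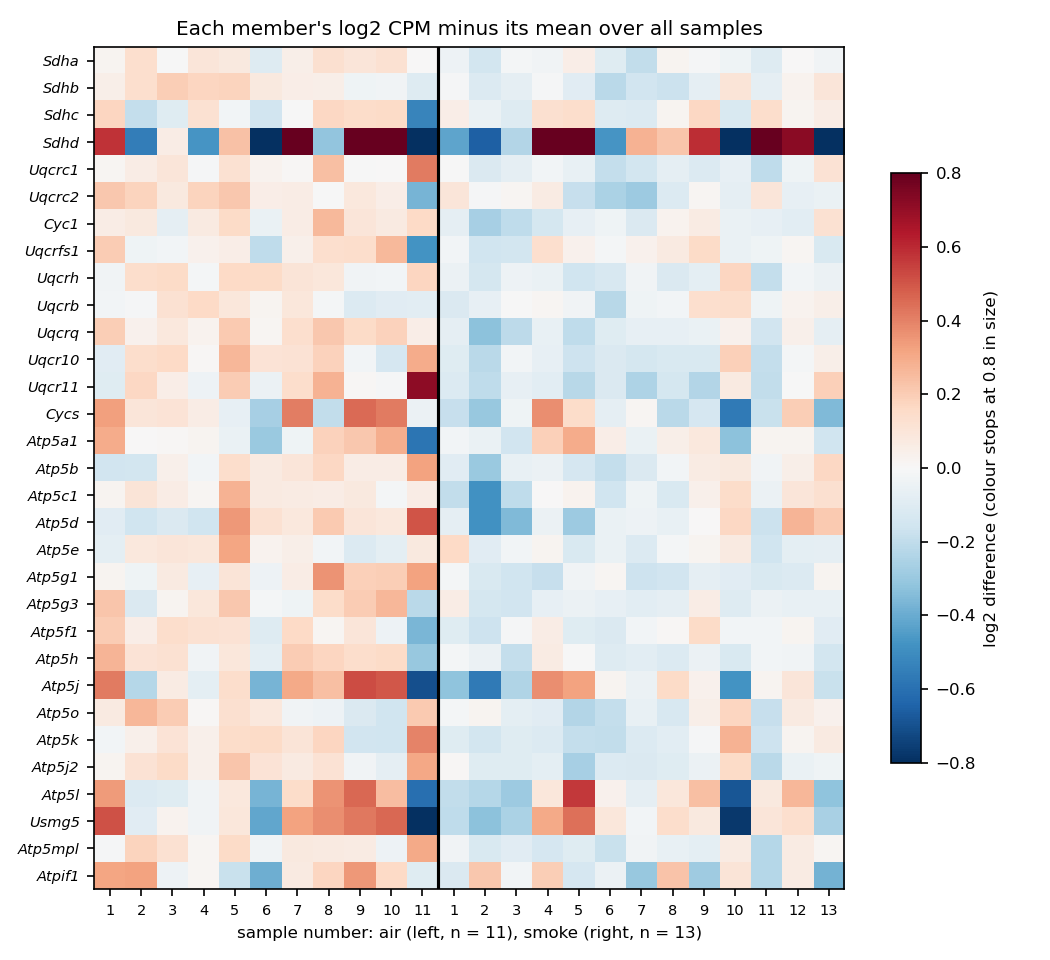
Log2 CPM of each of the 31 tested members (rows) in each sample (columns; 11 air on the left, 13 smoke on the right) minus the member's mean over all samples, with the colour scale stopping at 0.8 in size. Air columns are mostly red and smoke columns mostly blue, and air sample 11 and smoke sample 10 show alternating strong red and blue rows; Sdhd varies widely in both groups.

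Many genes of this system share promoter elements, and the best known factors are nuclear respiratory factor 1 (NRF1), ETS-family factors such as GABP (also called NRF2), the oestrogen-related receptors and SP1. RefSeq promoter windows on GRCm38.p6, running from 250 bases before to 50 bases after each start, were at hand for 25 of the 32 members, in 28 windows because Atp5c1, Atp5d and Atp5j have more than 1 listed start. Each motif was searched as exact letters on both strands, and a gene was counted if any of its windows held it. The NRF1 motif GCGCANGCG was in 13 of the 25 members (52.0%), against 9.63% of 17492 protein-coding genes. The ETS motif CCGGAAG was in 10 (40.0%, against 12.9%), the oestrogen-related receptor motif AAGGTCA in 6 (against 4.73%), and the SP1 motif GGGCGG in 10 (40.0%, against 49.2%). A match is a run of letters and not a measured site, and the shares describe these genes without reference to smoke. The 150 bases before the start are printed for 4 members with a match and for both called members that had a window, 5′ to 3′ on the gene's strand, with the NRF1 and ETS matches in capitals. All 6 genes lie on the minus strand, and the windows on GRCm38.p6 are chr13:74350241-74350390 for Sdha, chr9:50603850-50603999 for Sdhd, chr6:50566570-50566719 for Cycs, chr11:115419920-115420069 for Atp5h, chr11:96075632-96075781 for Atp5g1 and chr5:145191542-145191691 for Atp5j2.
Sdha: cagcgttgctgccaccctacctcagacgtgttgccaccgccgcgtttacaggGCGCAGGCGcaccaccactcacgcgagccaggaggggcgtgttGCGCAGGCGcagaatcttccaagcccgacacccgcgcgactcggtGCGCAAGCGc
Sdhd: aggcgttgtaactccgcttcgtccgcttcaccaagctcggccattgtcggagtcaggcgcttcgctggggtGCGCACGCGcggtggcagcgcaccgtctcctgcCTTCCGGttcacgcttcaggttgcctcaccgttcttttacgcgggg
Cycs: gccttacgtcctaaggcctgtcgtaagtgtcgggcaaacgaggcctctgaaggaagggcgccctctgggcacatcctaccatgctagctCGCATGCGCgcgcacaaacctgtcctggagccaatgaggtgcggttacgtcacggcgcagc
Atp5h: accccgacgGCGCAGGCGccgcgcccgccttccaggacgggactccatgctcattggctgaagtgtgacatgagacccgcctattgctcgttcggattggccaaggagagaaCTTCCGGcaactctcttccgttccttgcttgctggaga
Atp5g1: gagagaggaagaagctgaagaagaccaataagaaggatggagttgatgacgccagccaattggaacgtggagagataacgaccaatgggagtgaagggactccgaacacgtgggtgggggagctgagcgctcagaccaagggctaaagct
Atp5j2: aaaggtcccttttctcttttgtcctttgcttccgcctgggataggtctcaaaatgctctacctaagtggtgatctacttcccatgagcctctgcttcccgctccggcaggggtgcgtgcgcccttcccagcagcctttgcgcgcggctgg
Sdha held NRF1 letters at 3 places, and Sdhd and Atp5h held NRF1 and ETS letters. The printed stretches of Atp5g1 and Atp5j2 held none of these letters. Uqcrfs1, Uqcr10 and Atp5d, which edgeR did not call, also held none of the searched motifs in their windows. Uqcrq, the member with the smallest p, had no entry.

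The genes that surround these complexes were read from lists of their assembly factors, of coenzyme Q synthesis, of the mitochondrially encoded subunits and of complexes I and IV. Of 18 tested assembly factors of complexes II, III and ATP synthase, none was called by edgeR, DESeq2 or voom, 0 were lower and 1 was higher at an unadjusted p under 0.05, and the median log2 fold change was -0.04. The single one was Bcs1l, which inserts the Rieske protein into complex III, with a log2 fold change of 0.26 (adjusted p = 0.140, edgeR). Fmc1, an assembly factor of the F1 head, had one of -0.05. Of 12 tested genes of coenzyme Q synthesis, none was called by the 3 tools, 5 were lower at an unadjusted p under 0.05, and the median was -0.14. Among those 5 were Coq8a, a kinase-like regulator of the pathway (-0.17), and Coq10a, which binds coenzyme Q (-0.22). Of the 12, 2 had positive estimates, their paralogues Coq8b (0.14, adjusted p = 0.661, edgeR) and Coq10b (0.29, adjusted p = 0.414, edgeR). These 6 genes outside the membership were named after their values were seen.

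Among the mitochondrially encoded subunits, mt-Cytb, cytochrome b of complex III, had a log2 fold change of -0.03 (adjusted p = 0.880, edgeR), and mt-Atp6 and mt-Atp8 are listed at 0 counts in every sample. How the counting treated mt-Atp6 and mt-Atp8 is not known, so their 0 is not read as absence. The nuclear subunits of complex I gave 4 lower calls among 36 tested, Ndufa3 (-0.22), Ndufb5 (-0.19), Ndufb9 (-0.19) and Ndufv3 (-0.22), with 0 higher and a median of -0.12. Those of complex IV gave 3 among 14, Cox7a1 (-0.26), Cox6b1 (-0.21) and Cox8b (-0.19), with 0 higher and a median of -0.10. These counts are from edgeR. DESeq2 called 8 lower in complex I and 6 in complex IV, and voom called 5 and 3. Atp5s had a log2 fold change of 0.20 (adjusted p = 0.684, edgeR) and Dmac2 one of -0.03 (adjusted p = 0.930, edgeR).

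Markers of fibre types and of other cells were read beside the members. All 11 fast-fibre markers were detected, at 181500 to 282800 summed CPM in air and 188300 to 241100 in smoke, and edgeR called 0 of them, while DESeq2 and voom each called 1, Myh2, lower. At an unadjusted p under 0.05, Myh2, the myosin of the more oxidative fast fibres, was lower (log2 fold change -0.27) and Myh4, the myosin of the most glycolytic fibres, was higher (0.16). Slow-fibre markers, 9 of 9 detected, summed to 669 to 1035 CPM in air and 445 to 900 CPM in smoke. 1 of the 9, Csrp3, fell by 0.70 on the log2 scale (edgeR). At an unadjusted p under 0.05, 4 of the 9 were lower and 0 higher, the other three being Myl2 (-0.46), Myl3 (-0.29) and Atp2a2 (-0.35). The remaining 5 had log2 fold changes from -0.00022 to 0.59. Red-cell markers, 6 of 6 detected, summed to 487 to 1445 CPM in air and 369 to 884 CPM in smoke, with 3 of 5 tested called lower. Schwann-cell markers, 7 of 7 detected, summed to 123 to 290 CPM in air and 185 to 894 CPM in smoke, with 4 called higher by edgeR and by DESeq2 and 1 by voom. Adipocyte markers summed to 1179 to 2718 CPM in air and 1432 to 2615 CPM in smoke, endothelial markers to 267 to 358 and 271 to 323, fibroblast markers to 224 to 355 and 207 to 356, and macrophage markers to 77.3 to 137 and 88.3 to 136. No marker was at 0, and edgeR, DESeq2 and voom called no tested gene of these last 4 lists. At an unadjusted p under 0.05, 1 adipocyte marker was lower and 1 higher, 1 endothelial and 2 fibroblast markers were lower, and 0 of the 3 macrophage markers that were tested were lower or higher. The other 3 macrophage markers were under the filter on low counts. Their part in the lower subunit levels was not tested.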

How the data were processed

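Libraries of 24 plantaris samples were made with the Lexogen QuantSeq 3′ FWD kit and read on a HiSeq 4000, per the labels' protocols. The authors deposited a table of raw counts per Ensembl gene. The submitters' processing notes name STAR, DESeq2 and the build mm9 without their roles. The counting tool, the use of strand, read filters and molecular identifiers were not given in the sources used here, so members overlapping another gene are uncertain and counts may include PCR copies. Per the file headers, all samples were read on lane 6, and sample-sheet numbers ran in 1 block per group, so position and group cannot be told apart. Groups came from the sample titles.

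Gene names and types came from GENCODE M21 (GRCm38), which held 47224 of the IDs (99.1%). Its coordinates served only to find members that overlap other genes, and may differ from the annotation the authors counted with. The 32 members and all lists were chosen with earlier results of these data known. The fit used edgeR 4.0.16: filterByExpr with a minimum count of 10, TMM scaling and the quasi-likelihood test on all 24 samples without covariates, with Benjamini-Hochberg adjustment over 10159 genes. It was tested on simulated data. CPM values are TMM-scaled, and 95% intervals are from the standard error with a normal approximation, unlike the p-values. Total counts averaged 3529309 in air (SD 432439) and 3461143 in smoke (SD 588386). The typical standard error of a log2 fold change was 0.124 over all genes.

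Full values are given for called members, for the member with the smallest p and the one with the highest level in each complex or part, and for the c-ring genes. Other members were described after their values were seen. Alternatives were DESeq2 1.42.0, voom in limma 3.58.1, scaling by RLE or the upper quartile, robust dispersion, other filters, removal of the 10 most abundant genes, a block for the replicate number, a threshold of 0.10 on the adjusted p, and leaving out each sample. The fit without air sample 11 and smoke sample 10, the fit without the block on the 22 numbered samples, and the levels without air sample 11 alone were chosen after seeing the data. Over 133 pairs of samples within groups, counts differed by more than sampling noise, and no sample was merged or left out.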

Additional observations from a re-analysis of the deposited data

How the results depend on the processing

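The members called lower numbered 3 (1 in complex III with cytochrome c, 0 in complex II, 2 in ATP synthase). With DESeq2 they numbered 9, with 6 in complex III with cytochrome c, and at an adjusted p under 0.10 they numbered 8, with 5 there. The share of all genes called at 0.10 was not counted, so how far the looser threshold alone raised this number cannot be read. With no expression filter, where 201 of 27644 genes were called against 195 of 10159, 1 remained lower (Uqcrq) and 0 in ATP synthase. Without air sample 11 and smoke sample 10, 5 were lower, with 3 in complex III with cytochrome c. Leaving out 1 sample in turn gave 1 to 6 members lower, 1 to 4 in complex III with cytochrome c and 0 to 3 in ATP synthase, while 141 to 254 of all genes were called. No setting run called a member higher. Replicate numbers did not pair samples: same-numbered air and smoke samples had a mean r of -0.0059 over 11 pairs (lowest -0.275, highest 0.14), against 0.0011 over 132 other pairs. With the replicate block, 1 member was lower (Uqcrq) and 0 in ATP synthase, with 1.37% of all genes called, and the same 22 samples without the block gave 5 lower, with 3 in complex III with cytochrome c and 2.32% of all genes called. The sign turned for Atp5a1 under the replicate block (0.00024), without air replicate 1 (0.0069) and without air replicate 10 (0.0059), where leaving out 1 sample ranged from -0.075 to 0.0069. It turned for Sdhc without air replicate 11 (-0.018, in a range from -0.018 to 0.047) and without air sample 11 and smoke sample 10 (-0.0026). The cause of these shifts was not tested. Over 35 settings and 31 members, 1033 of 1085 fold changes kept their direction and their side of the threshold, 24 lost a call, 23 gained one and 5 turned sign. Atp5g1 was not called without the filter (log2 fold change -0.22, adjusted p = 0.0664, edgeR) or with the block (-0.21, adjusted p = 0.0808, edgeR). Atp5j2 was not called without the filter (-0.19, adjusted p = 0.131, edgeR), with the block (-0.19, adjusted p = 0.141, edgeR) or in the same 22 samples without the block (adjusted p = 0.052, edgeR). Atp5g2 did not pass the filter on low counts and was not tested, at 0 to 8 counts per sample.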
